A study of Mus musculus with 10 samples.

Results

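SMB56-shSufu, a hedgehog medulloblastoma line that carries a short hairpin RNA against Sufu, was compared with its parent SMB56 without any active compound. The comparison rests on 4 of the 10 RNA sequencing libraries of the series, 2 of each line, chosen by line and treatment. All 4 came from cells of Ptch+/- genotype, established from a spontaneous mouse medulloblastoma, grown as neurospheres and exposed for 8 hours to DMSO, the solvent. The parent is described with no hairpin at all, so no line with a control hairpin was compared, and nothing read here says whether SMB56-shSufu is 1 clone. The other 6 libraries received THZ1, a CDK7 inhibitor, or GDC-0449, an inhibitor of SMO, and the GDC-0449 libraries of SMB56 are used below only for values set side by side.

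In the hedgehog pathway the receptor PTCH1 holds back the membrane protein SMO, and SMO in turn relieves the GLI transcription factors of inhibition by SUFU, which binds them. GLI proteins then raise Gli1, Ptch1, Hhip, Mycn and D-type cyclin genes, and drive the division of granule neuron progenitors of the cerebellum, the cells from which this tumour arises. SUFU acts below SMO, so its loss is a known route by which hedgehog tumours escape SMO inhibitors.

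The authors' tables hold raw counts per gene. The GDC-0449 table, which supplies the SMB56 libraries, has 10008 genes, and the SMB56-shSufu table has 12057. A total of 9719 genes stand in both, which is 97.1% of the former and 80.6% of the latter, and 289 and 2338 genes were in 1 of them alone and were not tested. Counts over the 9719 genes were 14441407 and 14938700 in the SMB56 libraries and 30412898 and 31480746 in the SMB56-shSufu libraries. The SMB56-shSufu pair was less alike: the median absolute log2 difference between libraries of a line was 0.058 in SMB56 and 0.195 in SMB56-shSufu, and the biological coefficient of variation was 2.3% and 15.4%. Replicates are numbered in the labels, but separate cultures are not mentioned, so the tests take in no more than the spread of these libraries, which may be technical. The effect of the line and that of its table, depth and sequencing cannot be told apart. Of 8 granule neuron progenitor markers, 6 were in both tables, with summed levels of 2310 and 2290 CPM in SMB56 and 1770 and 1700 in SMB56-shSufu. No microglial, endothelial or fibroblast marker had a row in any table. Of 52 skeletal muscle genes, a list put together after values were seen, 19 had a row for both lines, with summed levels of 250 and 232 CPM in SMB56 and 662 and 607 in SMB56-shSufu. The part of these genes in the results was not tested.

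Sufu (ENSMUSG00000025231), the target of the hairpin, stood at 70.2 and 65.7 CPM (counts scaled to the TMM-normalised library size) in SMB56 and at 23.2 and 24.1 in SMB56-shSufu. The SMB56-shSufu values lay close together and well below the parent. The level was 2.88-fold lower, with a log2 fold change of -1.52 ± 0.10 (SE, n = 2 per line, edgeR adjusted p = 0.0012). The fold ran from -1.57 to -1.48 when any 1 library was left out. On the authors' FPKM, which are per transcript length, Sufu stood at 12.7 and 11.6 against 3.36 and 3.19. The transcript was thus reduced and still present.

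Across all genes, 3948 of 9719 differed between the lines at a Benjamini-Hochberg adjusted p under 0.05 (40.6%), 2024 higher in SMB56-shSufu (20.8%) and 1924 lower (19.8%). At least 2-fold, 275 were higher (2.83%) and 481 lower (4.95%). These counts leave out 2338 genes of the SMB56-shSufu table and 289 of the GDC-0449 table. The lowest mean count in the GDC-0449 table was 79.5, so genes low in SMB56 are likely to be left out. The counts thus do not weigh gains against losses. The median log2 fold change was 0.015, and the quartiles were -0.33 and 0.34. The libraries of the lines did not overlap for 7353 genes (75.7%), so a lack of overlap is common here and says little of a single gene. The count of calls was 1837 without SMB56 replicate 1 and 1806 without replicate 2, when the spread within a line rests on the SMB56-shSufu pair alone. It was 7250 without SMB56-shSufu replicate 1 and 7465 without replicate 2. Scaling by library size alone gave 1525 higher and 2451 lower, 38.4% higher among the calls against 51.3% with TMM. As these are bulk libraries, fewer cells of a type and less RNA per cell cannot be told apart.

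The hedgehog target genes did not move one way. Of 17 listed targets 11 were measured, and 5 were higher and 3 lower (72.7% called, beside 40.6% of all genes). Their median log2 fold change was 0.13 beside 0.015 for all genes. The counts were 2 and 2 without SMB56 replicate 1, 3 and 2 without replicate 2, 5 and 5 without SMB56-shSufu replicate 1, and 6 and 3 without replicate 2. Ptch1, the receptor gene, stood at 207 and 202 CPM against 296 and 321 (0.59 ± 0.09, edgeR adjusted p = 0.0057), with both SMB56-shSufu libraries above the parent. On the authors' FPKM Ptch1 was called higher as well (0.605, limma adjusted p = 0.011). The Ptch1 call was lost without SMB56 replicate 1 (edgeR adjusted p = 0.059) or replicate 2 (edgeR adjusted p = 0.075).

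Gli1, both a GLI factor and a standard readout of the pathway, stood at 163 and 159 CPM in SMB56 and at 266 and 207 in SMB56-shSufu. The SMB56-shSufu libraries were higher and apart from each other, and the log2 fold change was 0.56 ± 0.13 (edgeR adjusted p = 0.024). On the authors' FPKM the same gene stood at 33.5 and 33.1 against 37.0 and 25.8, and the SMB56-shSufu libraries lay on either side of the parent. A limma fit of log2(FPKM + 1) gave -0.10 (limma adjusted p = 0.68), so the counts and the FPKM of Gli1 point to different directions. In GENCODE, exons of Gli1 overlap those of Arhgap9 on the opposite strand, and no source used here says if strand was used in counting. Whether the overlap bears on this difference in direction was not tested. The call on counts was also lost without SMB56 replicate 1 (edgeR adjusted p = 0.075) or replicate 2 (edgeR adjusted p = 0.10).

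Sox9, a factor of neural stem cells, was higher on counts at 60.8 and 62.0 against 116 and 100 CPM (0.81 ± 0.10, edgeR adjusted p = 0.0044), and was not called on FPKM (0.44, limma adjusted p = 0.082). Foxm1, which drives genes of mitosis, was higher on counts (0.64 ± 0.09, edgeR adjusted p = 0.0058) and not called on FPKM (limma adjusted p = 0.13). Mycn, a driver of progenitor division, stood at 342 and 340 against 332 and 268 CPM, and Ccnd1, cyclin D1, at 227 and 233 against 277 and 201. Neither was called (-0.18 ± 0.12, edgeR adjusted p = 0.26 for Mycn and 0.05 ± 0.16, edgeR adjusted p = 0.81 for Ccnd1), and for Ccnd1 the lines overlapped. Bcl2, an inhibitor of apoptosis, was not called either (0.13 ± 0.13, edgeR adjusted p = 0.46).

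The lower targets were Ccnd2, Sfrp1 and Rab34. Sfrp1, a secreted Wnt antagonist, stood at 421 and 425 CPM in SMB56 and at 122 and 130 in SMB56-shSufu (-1.75 ± 0.09, edgeR adjusted p = 0.0011). The SMB56-shSufu libraries were alike and both lower. Rab34, a small GTPase of ciliogenesis, was lower by less (-0.31 ± 0.10, edgeR adjusted p = 0.047) and was not called on FPKM. On FPKM 2 targets were higher and 2 lower, with a median of -0.06. Gli3 and Hhip were not analysed here.

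Of 28 measured pathway components 6 were higher, 7 lower and 15 not called, with a median of -0.07. The share called, 46.4%, is near the 40.6% of all genes. The counts were 3 and 4 without either SMB56 library, 10 and 14 without SMB56-shSufu replicate 1, and 10 and 13 without replicate 2. Gli2, the main activator among GLI factors, stood at 84.0 and 80.6 CPM in SMB56 and at 165 and 222 in SMB56-shSufu (1.23 ± 0.15, edgeR adjusted p = 0.0041). Both SMB56-shSufu libraries were higher and differed from each other, and on FPKM the difference was smaller (0.67, limma adjusted p = 0.016). The hedgehog co-receptor genes Boc (0.45 ± 0.08, edgeR adjusted p = 0.0095) and Cdon (1.12 ± 0.18, edgeR adjusted p = 0.0076) were higher on counts, and on FPKM neither was called, with 0.02 for Boc (limma adjusted p = 0.93) and 0.47 for Cdon (limma adjusted p = 0.052). The third co-receptor gene, Gas1, was not called (0.23 ± 0.10, edgeR adjusted p = 0.12).

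Smo stood at 223 and 224 CPM in SMB56 and at 177 and 168 in SMB56-shSufu, lower in both libraries (-0.37 ± 0.08, edgeR adjusted p = 0.017). The call was lost without SMB56 replicate 1 (edgeR adjusted p = 0.25) or replicate 2 (edgeR adjusted p = 0.26). Gsk3b, a kinase that phosphorylates GLI proteins, was lower (-0.79 ± 0.08, edgeR adjusted p = 0.0027). Stk36, a homologue of the Drosophila kinase Fused, was at 25.5 and 23.4 CPM against 4.69 and 11.9 (-1.56 ± 0.42, edgeR adjusted p = 0.032), was not called on FPKM (limma adjusted p = 0.083), and its SMB56-shSufu libraries lay more than 2-fold apart. The genes of the primary cilium, the organelle in which SMO and SUFU meet, gave 2 higher and 5 lower of 35 measured, with a median of -0.10. This rests on single libraries. Without SMB56-shSufu replicate 1, 16 were higher and 7 lower with a median of 0.17, and without replicate 2, 5 were higher and 22 lower with a median of -0.32. Without SMB56 replicate 1 none was higher and 2 were lower, and without replicate 2 the counts were 1 and 2.

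The response of the same genes to SMO inhibition in the parent is given by its GDC-0449 libraries. Both comparisons use the same SMB56 DMSO libraries, so their values are set side by side and not compared. With GDC-0449, 3633 of 10008 genes were called (36.3%), 1755 higher (17.5%) and 1878 lower (18.8%). The log2 fold change with GDC-0449, and then between the lines, was -3.76 and 0.56 for Gli1, -1.31 and 0.59 for Ptch1, and -0.73 and 1.23 for Gli2. For Sox9 it was -1.39 and 0.81, for Ccnd1 -1.58 and 0.05, for Mycn -0.67 and -0.18, and for Sfrp1 -0.47 and -1.75. Each GDC-0449 value in these 2 sentences passed the edgeR test. Ccnd2 was -0.05 with GDC-0449 (edgeR adjusted p = 0.21) and -1.48 between the lines.

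The genes of the G1 phase showed an exchange among D-type cyclins, the partners of CDK4 and CDK6 that start the phosphorylation of RB. Ccnd2 stood at 1066 and 1070 CPM in SMB56 and at 362 and 401 in SMB56-shSufu (-1.48 ± 0.09, edgeR adjusted p = 0.0012). Ccnd3 stood at 48.6 and 47.8 against 372 and 270, 6.66-fold higher (2.73 ± 0.17, edgeR adjusted p = 0.0012). In both genes the lines lay far apart beside the difference within each line.

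Per transcript length the order of the cyclin genes differed as well. In SMB56 the FPKM were 136 and 137 for Ccnd2, 60.6 and 61.3 for Ccnd1 and 22.2 and 20.9 for Ccnd3, with no overlap. In SMB56-shSufu they were 171 and 105 for Ccnd3, 73.6 and 46.5 for Ccnd1 and 49.6 and 47.7 for Ccnd2. There Ccnd3 was highest in both libraries, while Ccnd1 and Ccnd2 overlapped. Exons of Ccnd3 overlap Bysl on the opposite strand, and the FPKM gave the same direction for Ccnd3 (2.58, limma adjusted p = 0.0022).

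Cdk6 stood at 77.7 and 84.5 CPM in SMB56 and at 228 and 282 in SMB56-shSufu (1.65 ± 0.13, edgeR adjusted p = 0.0017), higher in both libraries. Cdk4 was higher by less (0.34 ± 0.10, edgeR adjusted p = 0.047) and was not called on FPKM. Of the inhibitors of these kinases, Cdkn1a, which encodes p21, stood at 16.3 and 13.6 against 145 and 97.4 CPM (3.02 ± 0.23, edgeR adjusted p = 0.0016). Its SMB56-shSufu libraries were both several times above the parent. Cdkn1b, which encodes p27 and is high in granule progenitors that leave the cycle, stood at 333 and 319 against 183 and 185 (-0.83 ± 0.08, edgeR adjusted p = 0.0025), lower in both. The genes of the INK4 family in both tables, Cdkn2a, Cdkn2b and Cdkn2d, were not called, with log2 fold changes of -0.42, -0.65 and -0.43. In all, 4 of the 13 measured genes of cyclins D, their kinases, inhibitors and RB proteins were higher and 2 lower. The share called, 46.2%, is near the 40.6% of all genes.

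**Figure D1:**
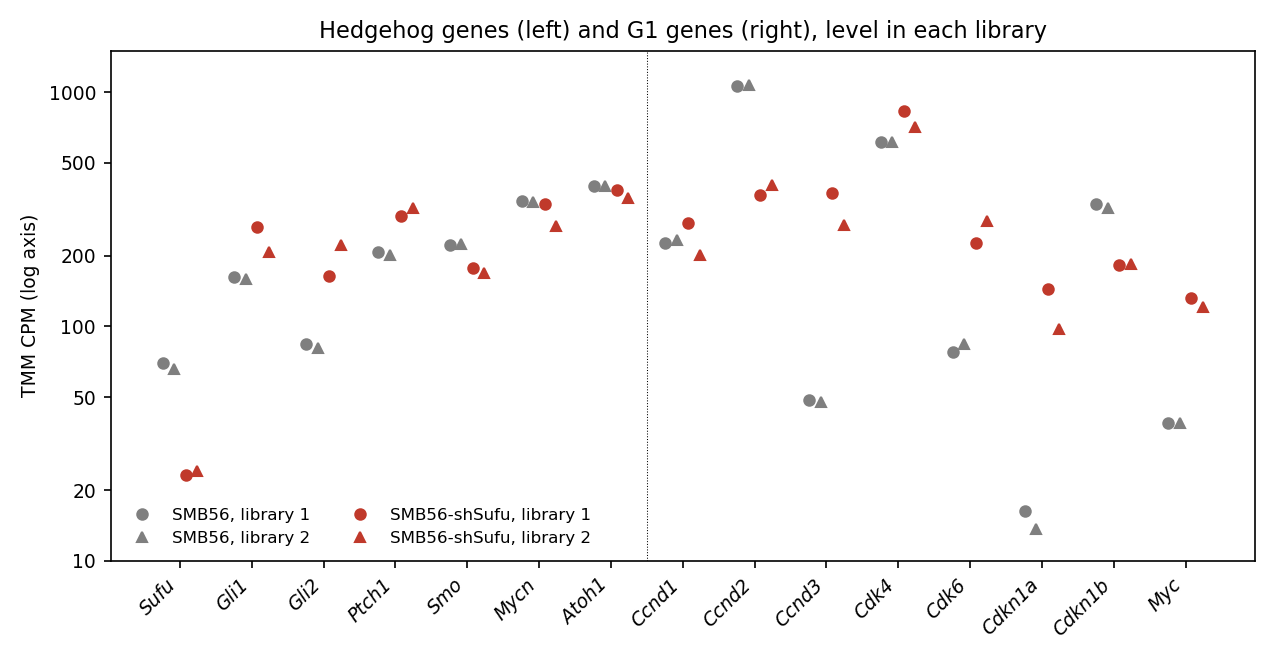
Level of each gene in TMM CPM on a log axis, 1 point per library, with SMB56 in grey and SMB56-shSufu in red, circles for library 1 and triangles for library 2. Sufu, Ccnd2 and Cdkn1b lie lower in SMB56-shSufu, while Gli2, Ccnd3, Cdk6, Cdkn1a and Myc lie higher, and Ccnd1 overlaps between the lines.

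Cdkn1a is also a p53 target, and that list went both ways. Of 18 p53 targets measured 4 were higher and 6 lower (55.6% called, beside 40.6% of all genes), with a median of -0.11. Beside Cdkn1a the higher ones were Sesn2, a stress-induced inhibitor of mTORC1 signalling (0.74 ± 0.16, edgeR adjusted p = 0.016), the nuclease gene Aen (0.51 ± 0.10, edgeR adjusted p = 0.012) and the DNA polymerase gene Polk (0.59 ± 0.18, edgeR adjusted p = 0.047). Ddit4, a stress-induced inhibitor of mTORC1, stood at 268 and 246 CPM against 70.1 and 65.1 (-1.93 ± 0.09, edgeR adjusted p = 0.0011). Trp53inp1 was lower (-1.52 ± 0.13, edgeR adjusted p = 0.0020), and so was Bbc3, which encodes the apoptosis inducer PUMA (-1.05 ± 0.23, edgeR adjusted p = 0.018). Mdm2, which encodes the ligase of p53, was not called (0.22 ± 0.10, edgeR adjusted p = 0.13). The counts were 2 higher and 3 lower without SMB56 replicate 1, 2 and 4 without replicate 2, 7 and 11 without SMB56-shSufu replicate 1, and 7 and 8 without replicate 2. The Bbc3 call was lost without SMB56 replicate 1 (edgeR adjusted p = 0.053) or replicate 2 (edgeR adjusted p = 0.11).

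Genes of mitosis were higher in SMB56-shSufu. Of 30 listed and measured, 23 were called higher and none lower, where 20.8% of all genes were called higher and 19.8% lower, and all 30 had a log2 fold change above 0, from 0.15 to 0.96 with a median of 0.57. Ccna2, cyclin A2, stood at 259 and 244 CPM against 537 and 440 (0.96 ± 0.12, edgeR adjusted p = 0.0041), higher in both SMB56-shSufu libraries. Cenpe, a kinetochore motor, stood at 153 and 149 against 282 and 246 (0.81 ± 0.10, edgeR adjusted p = 0.0039), also higher in both. Kif23, a kinesin of cytokinesis, stood at 133 and 142 against 249 and 204 (0.72 ± 0.12, edgeR adjusted p = 0.0080).

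Aurka, a kinase of the spindle poles, stood at 81.7 and 75.3 CPM against 178 and 125 (0.95 ± 0.18, edgeR adjusted p = 0.012). Ube2c, the ubiquitin-conjugating enzyme of the anaphase-promoting complex, stood at 136 and 140 against 317 and 211 (0.94 ± 0.20, edgeR adjusted p = 0.016). In both genes the SMB56-shSufu libraries were above the parent and wide apart, and on FPKM neither was called (limma adjusted p = 0.070 and 0.10). The difference within SMB56-shSufu ran through the list, with a median log2 difference of -0.20 for library 2 minus library 1. The number of mitosis genes called higher was 12 without SMB56 replicate 1, 13 without replicate 2, 28 and 30 without SMB56-shSufu replicate 1 or 2, and 19 on FPKM.

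Of 31 measured genes of DNA replication and E2F, 17 were higher and none lower, with a median of 0.38. The share called was 54.8%, beside 40.6% of all genes. Ccne1, cyclin E1, stood at 41.3 and 41.8 CPM against 85.4 and 90.3 (1.08 ± 0.09, edgeR adjusted p = 0.0019), with both SMB56-shSufu libraries about 2-fold above the parent. E2f8, a repressive E2F, was higher (0.87 ± 0.09, edgeR adjusted p = 0.0027) but was not called on FPKM (limma adjusted p = 0.059). Cdc45, a part of the replicative helicase, was higher (0.82 ± 0.08, edgeR adjusted p = 0.0026), and so was Ccne2 (0.70 ± 0.12, edgeR adjusted p = 0.0086). The count of 17 was 6 without SMB56 replicate 1 and 5 without replicate 2, and 23 and 24 were higher and 2 lower without SMB56-shSufu replicate 1 or 2.

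The promoters of 3 of the mitosis genes are shown because many genes of this list share a short element known as the cell cycle genes homology region, a site of repression outside G2 and mitosis. They were picked by size of fold among called genes whose window holds the element's hexamer, so a match in each was fixed in advance. The sequences are RefSeq windows on GRCm38.p6 that run from 250 bases before to 50 bases after the start of the gene, 5′ to 3′ on the strand of the gene. Capitals mark TTTGAA or, on the other strand, TTCAAA. The windows are those of Aurka (chr2:172370521-172370820, minus strand), Ube2c (chr2:164769679-164769978, plus strand) and Kif23 (chr9:61946750-61947049, minus strand).
Aurka: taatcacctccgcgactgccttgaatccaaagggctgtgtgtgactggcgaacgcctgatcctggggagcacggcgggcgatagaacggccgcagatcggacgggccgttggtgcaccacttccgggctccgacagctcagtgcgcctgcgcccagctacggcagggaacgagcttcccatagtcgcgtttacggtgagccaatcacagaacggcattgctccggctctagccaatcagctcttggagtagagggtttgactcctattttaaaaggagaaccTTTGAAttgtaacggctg
Ube2c: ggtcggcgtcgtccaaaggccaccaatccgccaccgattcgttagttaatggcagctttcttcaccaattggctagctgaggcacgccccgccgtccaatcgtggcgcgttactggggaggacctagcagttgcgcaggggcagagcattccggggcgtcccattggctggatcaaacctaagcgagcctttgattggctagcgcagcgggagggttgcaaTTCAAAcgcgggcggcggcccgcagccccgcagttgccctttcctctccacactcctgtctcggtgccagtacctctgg
Kif23: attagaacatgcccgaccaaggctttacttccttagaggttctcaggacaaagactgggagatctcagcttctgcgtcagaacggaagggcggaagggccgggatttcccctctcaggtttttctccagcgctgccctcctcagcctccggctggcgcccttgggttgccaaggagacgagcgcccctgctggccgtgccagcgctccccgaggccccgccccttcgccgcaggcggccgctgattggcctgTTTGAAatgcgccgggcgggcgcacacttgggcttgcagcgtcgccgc
The first capital is base 283 of the Aurka window, base 222 of the Ube2c window and base 253 of the Kif23 window. In Aurka and Kif23 it thus lies after the start of the gene. Of the 25 measured mitosis genes with a window, 18 held the hexamer on either strand (72%), and so did 12 of the 18 that were called. Among all tested genes with a window it was found in 1016 of 7474 (13.6%), and among all 32851 windows in 17.9%. A match is a description of these letters and does not show that a factor binds there.

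Of 19 measured genes of neuronal differentiation 11 were called lower and 1 higher, where 19.8% of all genes were called lower and 20.8% higher. The median log2 fold change was -0.56. Rbfox3, which encodes the neuronal nuclear protein NeuN, stood at 105 and 104 CPM in SMB56 and at 30.3 and 19.5 in SMB56-shSufu (-2.07 ± 0.21, edgeR adjusted p = 0.0027). Mapt, which encodes the axonal protein tau, stood at 93.8 and 89.4 against 36.1 and 28.1 (-1.51 ± 0.14, edgeR adjusted p = 0.0023). In both genes each SMB56-shSufu library was more than 2-fold below either parent library.

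Elavl3, a neuronal RNA-binding protein, stood at 540 and 552 CPM against 182 and 257 (-1.32 ± 0.17, edgeR adjusted p = 0.0044). Grin2c, a subunit of NMDA receptors found in granule cells, stood at 449 and 457 against 162 and 272 (-1.06 ± 0.24, edgeR adjusted p = 0.019). Here library 2 of SMB56-shSufu was closer to the parent than library 1, and both were lower. The 7 members not called were Dcx, Map2, Syt1, Gap43, Neurod1, Neurod6 and Rnd2, with log2 fold changes of -0.62, -0.25, -0.35, -0.08, -0.03, 0.13 and 0.20, and the 1 member called higher was Sema6a, a guidance molecule of granule cells (0.47 ± 0.09, edgeR adjusted p = 0.011).

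Transcription factors of granule progenitors split. Atoh1, which defines the lineage, stood at 396 and 396 CPM in SMB56 and at 380 and 354 in SMB56-shSufu and was not called (-0.11 ± 0.08, edgeR adjusted p = 0.34). Zic1 was not called (-0.27 ± 0.09, edgeR adjusted p = 0.056). Barhl1, a homeobox gene of the rhombic lip, stood at 681 and 666 against 267 and 319 (-1.20 ± 0.11, edgeR adjusted p = 0.0023), and its relative Barhl2 at 38.9 and 39.2 against 6.87 and 7.74 (-2.42 ± 0.13, edgeR adjusted p = 0.0011). Both were lower in both libraries. En2, a homeobox gene of the cerebellar field, was lower (-1.34 ± 0.15, edgeR adjusted p = 0.0033), and Lhx9 was higher, at 7.13 and 8.20 against 15.0 and 22.9 (1.31 ± 0.25, edgeR adjusted p = 0.012). In all, 1 of 12 measured was higher and 5 were lower, where 20.8% of all genes were called higher and 19.8% lower. The median of the list was -0.29. It was -0.32 without SMB56 replicate 1 and -0.27 without replicate 2. Without SMB56-shSufu replicate 1 the median was -0.29, and without replicate 2 it was -0.31.

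Stem cell and glial genes did not move together, with 3 higher and 2 lower of 10 measured. Olig1, of the oligodendrocyte lineage, was higher (1.22 ± 0.09, edgeR adjusted p = 0.0017). Slc1a2, a glutamate transporter (-1.20 ± 0.22, edgeR adjusted p = 0.011), and Nfia, a factor of gliogenesis and granule cell maturation (-0.96 ± 0.08, edgeR adjusted p = 0.0020), were lower. The oligodendrocyte gene Mbp was lower (-0.79 ± 0.18, edgeR adjusted p = 0.020), a call lost without SMB56 replicate 1 (edgeR adjusted p = 0.053) or replicate 2 (edgeR adjusted p = 0.072). Of 24 genes of fibroblasts and extracellular matrix 4 were measured, and Fn1, fibronectin, was at 19.96 and 20.8 against 59.9 and 59.7 CPM (1.55 ± 0.10, edgeR adjusted p = 0.0012). Col4a1 was higher (0.91) and Col5a1 lower (-0.86), and the defining fibroblast genes Col1a1, Col1a2, Col3a1 and Dcn had no row in any table.

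**Figure D2:**
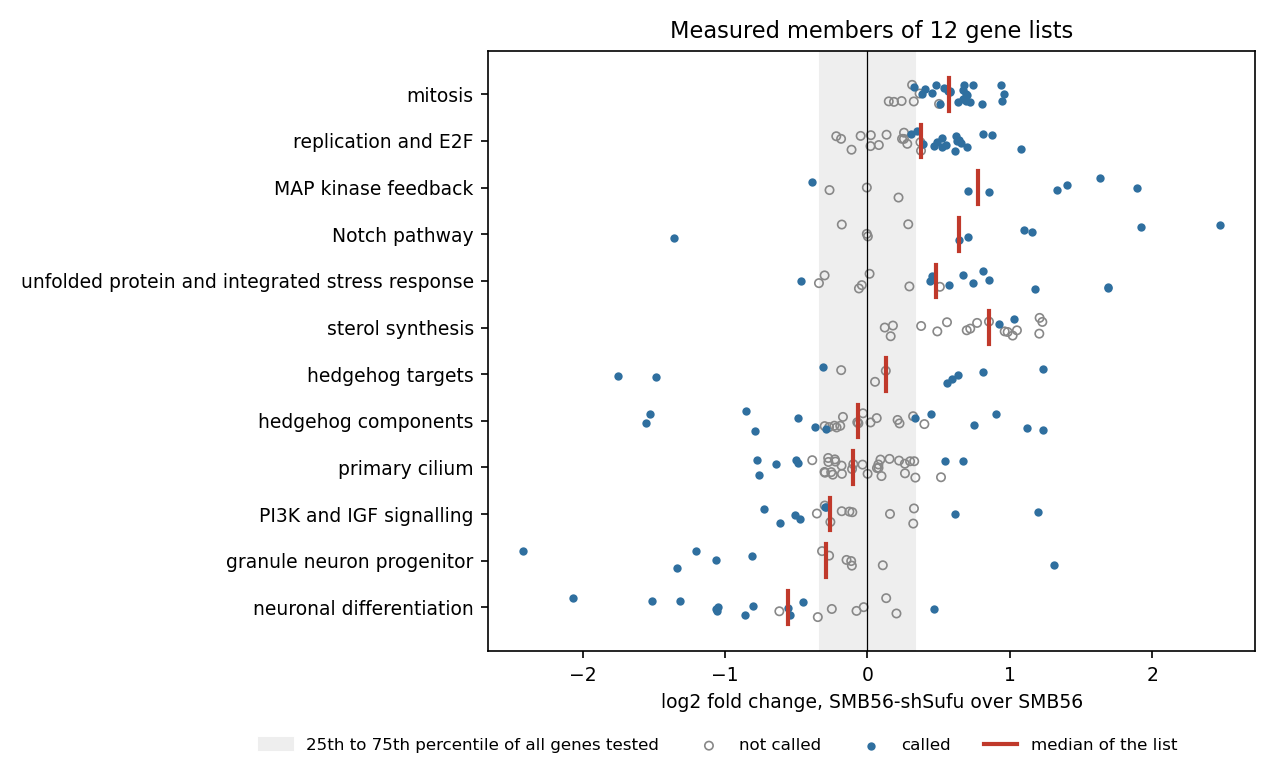
Log2 fold change of SMB56-shSufu over SMB56 for each measured member of 12 gene lists, filled where called, with the median of each list as a red bar and the 25th to 75th percentile of all genes tested as a grey band. Mitosis genes lie above 0 (median 0.57) and most genes of neuronal differentiation below (median -0.56), while hedgehog targets and components lie on both sides.

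Targets and feedback inhibitors of MAP kinase signalling were higher on the whole. Of 10 measured 6 were higher and 1 lower, where 20.8% of all genes were called higher and 19.8% lower. The median was 0.78. The ETS factors Etv1 (10.8 and 13.9 against 41.1 and 50.7 CPM, 1.89 ± 0.18, edgeR adjusted p = 0.0024) and Etv4 (12.4 and 12.7 against 24.0 and 53.7, 1.63 ± 0.39, edgeR adjusted p = 0.023) were higher, the latter with SMB56-shSufu libraries over 2-fold apart. Dusp6, a phosphatase of ERK, stood at 19.2 and 20.5 against 41.8 and 62.9 (1.40 ± 0.21, edgeR adjusted p = 0.0063). Spry2, an inhibitor of receptor tyrosine kinase signalling, stood at 10.96 and 9.69 against 24.9 and 26.9 (1.33 ± 0.14, edgeR adjusted p = 0.0029). All 4 genes were higher in both SMB56-shSufu libraries. Dusp4 was the member called lower (-0.39 ± 0.10, edgeR adjusted p = 0.034), and on FPKM the counts were again 6 and 1. Among immediate early genes 2 of 7 were higher and 2 lower (57.1% called, beside 40.6% of all genes). Myc was at 38.9 and 38.6 against 133 and 121 CPM (1.71 ± 0.09, edgeR adjusted p = 0.0011), and Jund, a part of AP-1, at 52.2 and 53.4 against 23.2 and 11.3 (-1.61 ± 0.32, edgeR adjusted p = 0.014). Fosl2 was lower (-0.76), and Klf6 was higher (0.79, edgeR adjusted p = 0.036), a call lost on FPKM and without either SMB56 library.

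Of 11 measured genes of the Notch pathway 6 were higher and 1 lower (63.6% called, beside 40.6% of all genes), with a median of 0.65. On FPKM 4 were higher and the median was 0.11. Notch1, a receptor, stood at 35.1 and 37.7 CPM against 157 and 119 (1.92 ± 0.16, edgeR adjusted p = 0.0018), and Jag1, a ligand, at 67.6 and 65.0 against 153 and 142 (1.15 ± 0.09, edgeR adjusted p = 0.0016). Mfng, a glycosyltransferase that modifies Notch receptors, stood at 6.92 and 8.46 against 46.6 and 39.04 (2.48 ± 0.17, edgeR adjusted p = 0.0013). Each was higher in both libraries. Hey1, a transcriptional target of Notch, stood at 152 and 141 against 57.1 and 57.2 (-1.36 ± 0.09, edgeR adjusted p = 0.0012), lower in both. Hes1, another Notch target, has no row in the GDC-0449 table. In a fit that took in the other SMB56 table, chosen after seeing the data, it was at 1.55 and 1.55 CPM against 5.93 and 6.60 (2.01 ± 0.23, edgeR adjusted p = 0.0031), higher in both. A gene without that row is likely to be low in SMB56, so this fold does not test a rise. The receptor gene Notch2 (0.71), the ligand gene Jag2 (1.10) and the modifier gene Rfng (0.65) were higher too, while the ligand gene Dll3 (-0.18), the modifier genes Lfng (0.003) and Numb (0.29) and the Hes gene Hes6 (-0.004) were not called.

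In the Wnt list 2 of 13 were higher and 4 lower (46.2% called, beside 40.6% of all genes). Beside Sfrp1, the receptor genes Fzd3 (-1.47 ± 0.24, edgeR adjusted p = 0.0076) and Fzd7 (-1.01 ± 0.09, edgeR adjusted p = 0.0023) and the feedback target Axin2 (-0.47 ± 0.10, edgeR adjusted p = 0.016) were lower. Nkd1, a feedback inhibitor of the pathway, was higher on counts at 204 and 198 CPM against 288 and 281 (0.50 ± 0.08, edgeR adjusted p = 0.0072), while its FPKM were 47.3 and 45.04 against 46.8 and 38.1. Without either SMB56 library 0 members were called higher and 3 lower. Tcf7l1, a transcription factor of the pathway, was called higher (0.51, edgeR adjusted p = 0.034), and lost the call on FPKM, with DESeq2, under library size scaling and without either SMB56 library. Of the BMP and TGF-beta list 2 of 6 were higher and 1 lower: Id2, a BMP target, was higher (0.97 ± 0.09, edgeR adjusted p = 0.0021), the receptor gene Tgfbr1 was lower (-0.76) and Tgfbr2 higher (0.93), neither receptor being called on FPKM. Of PI3K and IGF genes 2 of 17 were higher and 6 lower (47.1% called, beside 40.6% of all genes), with a median of -0.26. Those counts were 1 and 2 without either SMB56 library, 5 and 9 without SMB56-shSufu replicate 1, and 4 and 11 without replicate 2. Igfbp5, which encodes an IGF-binding protein, stood at 52.2 and 55.6 against 120 and 127 CPM (1.197 ± 0.09, edgeR adjusted p = 0.0016). Foxo3 was lower (-0.72 ± 0.10, edgeR adjusted p = 0.0050), and Foxo1 was called higher (0.62, edgeR adjusted p = 0.025) with the call lost on FPKM, with DESeq2 and without either SMB56 library.

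The sterol synthesis genes, which the factor SREBP2 raises when cholesterol is low, separated the 2 SMB56-shSufu libraries from each other. Library 1 lay above the SMB56 mean in all 19 measured genes, by a median log2 ratio of 1.37, and at least 2-fold in 15. Library 2 lay above it in 10 of 19, with a median of 0.03, and at least 2-fold in none. Hmgcs1, HMG-CoA synthase, stood at 250 and 256 CPM in SMB56 and at 652 and 210 in SMB56-shSufu. Its SMB56-shSufu libraries lay on either side of the parent.

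All 19 were lower in library 2 than in library 1. Of the 35 genes that were at least 2-fold lower in library 2 among the 9719, 15 belong to this list. The list therefore had a median log2 fold change of 0.85. The 2 members called (10.5%, beside 40.6% of all genes) were Sc5d (1.03 ± 0.25, edgeR adjusted p = 0.026) and Ebp (0.92 ± 0.12, edgeR adjusted p = 0.0041). The number called was 19 higher without SMB56-shSufu replicate 2, and 6 higher and 8 lower without replicate 1. What sets the libraries apart was not tested.

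**Figure D3:**
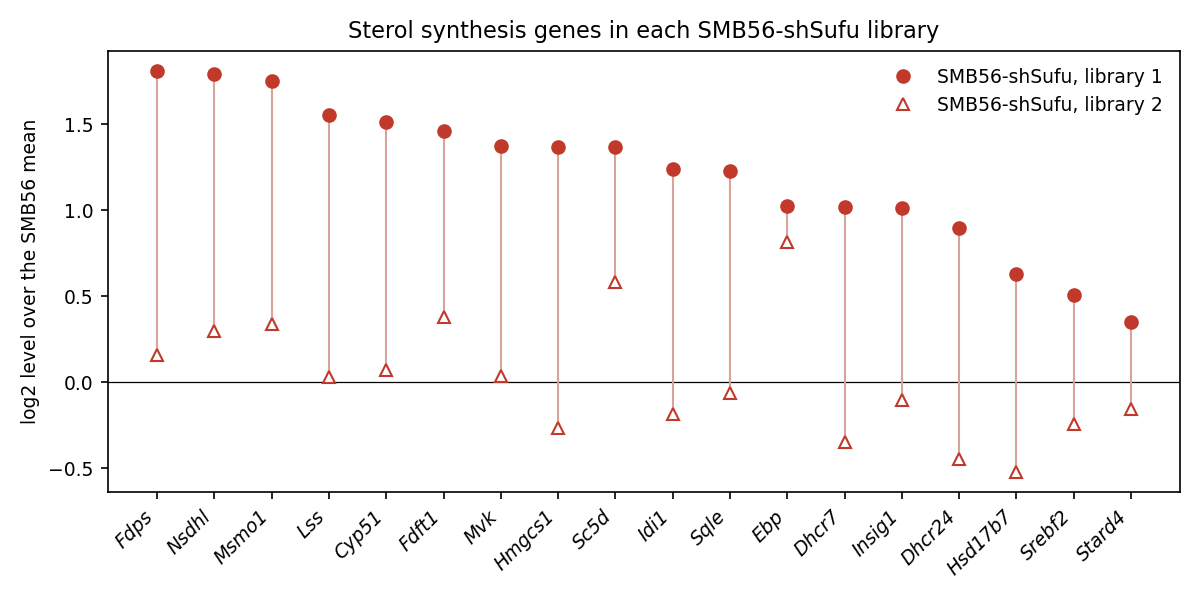
Log2 level over the SMB56 mean (vertical axis) of sterol synthesis genes in each SMB56-shSufu library, with library 1 as filled circles and library 2 as open triangles. Library 1 lies at 0.35 to 1.81 and library 2 at -0.52 to 0.82, below library 1 for every gene shown.

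The promoter window of Hmgcs1 is shown since it was the 1 measured gene of this list found to hold the sterol regulatory element sequence TCACCCCAC (or GTGGGGTGA on the other strand), of 13 with a window (7.69%), against 57 of 7474 tested genes (0.763%). It lies at chr13:119690101-119690400 of GRCm38.p6 on the plus strand, from RefSeq, and the capitals mark the element, whose first base is base 114.
Hmgcs1: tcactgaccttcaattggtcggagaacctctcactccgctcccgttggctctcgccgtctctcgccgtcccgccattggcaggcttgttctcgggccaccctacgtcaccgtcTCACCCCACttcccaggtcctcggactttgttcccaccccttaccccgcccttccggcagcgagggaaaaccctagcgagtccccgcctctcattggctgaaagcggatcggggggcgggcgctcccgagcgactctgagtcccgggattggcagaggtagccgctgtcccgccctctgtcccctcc

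Genes of the integrated stress and unfolded protein responses were higher on balance. Of 18 measured 10 were higher and 1 lower (61.1% called, beside 40.6% of all genes), with a median of 0.48. The number higher was 6 without SMB56 replicate 1 and 7 without replicate 2. Atf4, the transcription factor of the integrated stress response, stood at 166 and 158 CPM against 596 and 450 (1.69 ± 0.15, edgeR adjusted p = 0.0021). Ppp1r15a, which directs dephosphorylation of eIF2-alpha, stood at 11.5 and 12.7 against 43.8 and 34.2 (1.69 ± 0.17, edgeR adjusted p = 0.0026). Shmt2, a mitochondrial enzyme of serine metabolism, stood at 219 and 217 against 467 and 523 (1.18 ± 0.09, edgeR adjusted p = 0.0017). All were higher in both libraries. Ddit3, which encodes CHOP, was higher on counts (0.85 ± 0.13, edgeR adjusted p = 0.0058) and not called on FPKM (limma adjusted p = 0.072), Psat1 and Phgdh were not called (-0.04 and 0.02), and Xbp1 was lower (-0.47). Of 11 heat shock genes 4 were higher and 1 lower (45.5% called, beside 40.6% of all genes). Hsf1 (0.80) and Hsph1 (0.76) were higher and Hspd1 lower (-0.67), and Hsf1 and Hspd1 were not called on FPKM. Hspa8 was called higher (0.69, edgeR adjusted p = 0.045) and lost the call on FPKM, under library size scaling and without either SMB56 library.

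Genes of glycolysis and hypoxia went both ways, 4 higher and 3 lower of 19 (36.8% called, beside 40.6% of all genes), around a median near 0. The counts were 3 and 2 without SMB56 replicate 1, 2 and 2 without replicate 2, 5 and 12 without SMB56-shSufu replicate 1, and 11 and 4 without replicate 2. Vegfa, an angiogenic growth factor, was at 77.6 and 76.0 against 168 and 185 CPM (1.203 ± 0.09, edgeR adjusted p = 0.0016), and Eno2, neuronal enolase, was higher (1.67 ± 0.18, edgeR adjusted p = 0.0030). Bnip3, a mitophagy gene induced by hypoxia (-1.69 ± 0.22, edgeR adjusted p = 0.0046), and Aldoa (-0.68 ± 0.15, edgeR adjusted p = 0.018) were lower. Of 10 imprinted genes 4 were higher and none lower, and the share called, 40.0%, is near the 40.6% of all genes. Plagl1 was at 45.7 and 48.7 against 191 and 166 CPM (1.92 ± 0.11, edgeR adjusted p = 0.0011), and Zim1 and Peg3, neighbours in an imprinted cluster, were higher (2.26 and 0.76), Peg3 not on FPKM (limma adjusted p = 0.092). Usp29 was higher (0.65), and lost the call on FPKM and without either SMB56 library.

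Genes that react to foreign RNA, or that process small RNAs, were looked at since 1 line carries a hairpin. Of 37 interferon-stimulated genes 7 were measured, and the 1 called was B2m, the light chain of MHC class I, at 84.8 and 86.5 against 199 and 250 CPM (1.39 ± 0.13, edgeR adjusted p = 0.0023). Thus 14.3% of those measured were called, beside 40.6% of all genes. Listed genes without a row for both lines were not tested. A gene low in SMB56 is likely to lack such a row, so this share does not test for a response to the hairpin. Of 11 genes of the silencing machinery 2 were higher and 3 lower (45.5% called, beside 40.6% of all genes). Drosha (0.58) and Xpo5 (0.38), which act before Dicer, were higher on counts and not called on FPKM, while the GW182 genes Tnrc6a (-0.80 ± 0.11, edgeR adjusted p = 0.0047), Tnrc6b (-0.75 ± 0.22, edgeR adjusted p = 0.042) and Tnrc6c (-0.37 ± 0.09, edgeR adjusted p = 0.027) were lower. Dicer1 and Ago2 were not called (0.14 and -0.02).

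Mitochondrially encoded genes took 3.30% of the counts in each SMB56 library and 6.25% and 8.75% in the SMB56-shSufu libraries. Of 14 measured 7 were higher and 2 lower (64.3% called, beside 40.6% of all genes). mt-Co1, a subunit of complex IV, was higher (1.48 ± 0.13, edgeR adjusted p = 0.0021), and so was mt-Cytb of complex III (1.54 ± 0.20, edgeR adjusted p = 0.0046). mt-Rnr2, the large mitochondrial ribosomal RNA, was at 2289 and 2208 CPM against 520 and 749 (-1.82 ± 0.18, edgeR adjusted p = 0.0026), while mt-Rnr1 was not called (-0.03). mt-Nd3 was lower at 4.97 and 9.49 against 1.94 and 2.62 CPM (-1.66, edgeR adjusted p = 0.020), a call lost without SMB56 replicate 2 (edgeR adjusted p = 0.12). Mitochondrial genes have near-identical nuclear copies, so their counts are uncertain.

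Of 73 nuclear genes of oxidative phosphorylation 19 were higher and 12 lower (median 0.10), and the share called, 42.5%, is near the 40.6% of all genes. The counts were 7 and 5 without SMB56 replicate 1, 6 and 6 without replicate 2, 38 and 23 without SMB56-shSufu replicate 1, and 36 and 21 without replicate 2. Atp5e of ATP synthase was lower (-1.63 ± 0.09, edgeR adjusted p = 0.0011), and Ndufs5 (1.51 ± 0.20, edgeR adjusted p = 0.0047) and Ndufa12 (1.10 ± 0.09, edgeR adjusted p = 0.0018) of complex I were higher. Ndufc1 was called lower on counts (-1.58 ± 0.12, edgeR adjusted p = 0.0016), and on FPKM it was 0.08 (limma adjusted p = 0.79). The 77 cytosolic ribosomal protein genes, many with processed copies, gave 26 higher and 20 lower on counts (median 0.02) and 13 higher and 30 lower on FPKM (median -0.13). The share called on counts was 59.7%, beside the same 40.6%. On counts, 10 were higher and 10 lower without SMB56 replicate 1, 6 and 11 without replicate 2, 32 and 31 without SMB56-shSufu replicate 1, and 36 and 29 without replicate 2. Rpl22l1 (-1.95) and Rps21 (-1.79) were lower, and of the near-identical pair Rps3a1 and Rps3a2, which a counter could confuse, the former was higher (1.59) and the latter lower (-1.69). Of 9 measured genes on a list of nuclear noncoding RNAs and genes whose reads can come from ribosomal RNA 2 were higher and 4 lower, with Lars2, which encodes a protein, among the lower. The share called on that list was 66.7%. The nuclear RNA Malat1 was at 1810 and 1788 against 448 and 609 CPM (-1.77 ± 0.16, edgeR adjusted p = 0.0021), and Rn7sk was lower (-2.07, edgeR adjusted p = 0.018), a call lost with voom and without SMB56 replicate 2. Gm26917, whose sequence resembles ribosomal RNA, was lower (-1.38 ± 0.27, edgeR adjusted p = 0.012). Of 3 histone genes Hist2h2be was higher (0.70, a call lost without either SMB56 library) and Hist3h2ba lower (-1.07). GENCODE names 146 of the tested genes as pseudogenes, of which 17 were higher and 61 lower, 43 of them at least 2-fold, where 4.95% of all genes were that much lower.

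Among genes picked by size of fold alone, the higher ones with the largest change began with Dcpp2, a secreted demilune cell protein, at 10.5 and 12.6 against 168 and 160 CPM (3.83 ± 0.12, edgeR adjusted p = 0.0006). Its exons overlap those of its close copy Dcpp1, so which copy was counted is uncertain. Lsp1, a leukocyte actin-binding protein, was at 8.60 and 9.30 against 135 and 88.3 (3.64 ± 0.24, edgeR adjusted p = 0.0013). Both genes were many times above the parent in either library, and both were lower with GDC-0449 in the parent (-1.75, edgeR adjusted p = 1.8e-09, and -1.38, edgeR adjusted p = 4.0e-07), measured against the same SMB56 DMSO libraries. Of the other higher genes of largest fold, Ccnd3 (-0.32), Slc6a6 (-0.43) and Sned1 (-0.35) were called lower with GDC-0449. Flnc (0.63) and Nrk (0.58) were called higher with it, and Cdkn1a, Mras, Mfng, Pcyt1b, Pvalb, Wfikkn2 and Zim1 were not called.

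The filamin gene Flnc was at 7.19 and 7.30 CPM against 53.8 and 46.5 (2.79 ± 0.14, edgeR adjusted p = 0.0011). Slc6a6, the taurine transporter, was at 7.93 and 7.88 against 36.1 and 62.3 (2.64 ± 0.29, edgeR adjusted p = 0.0030), and Mras, a RAS-family GTPase, at 14.1 and 12.9 against 104 and 63.1 (2.63 ± 0.26, edgeR adjusted p = 0.0027). For each, both SMB56-shSufu libraries were well above the parent. Flnc, Mras and Pvalb, picked here for large fold, stand on the muscle list, so their place there is no test. That list was put together after values were seen, and its summed level is given above. Of its defining genes, Myod1 (3739 and 2104 counts) and Myog (898 and 610 counts) have rows for SMB56-shSufu and none for SMB56. Others, Myf5, Myf6, Des, Acta1, Ryr1 and Neb, have no row for either line. More genes have a row for SMB56-shSufu, at greater depth, so a missing SMB56 row gives no level. The kinase gene Nrk (2.40), the matrix gene Sned1 (2.37), Pcyt1b of phosphatidylcholine synthesis (2.15), the calcium buffer Pvalb (2.04) and Wfikkn2, an inhibitor of GDF8 and GDF11 (2.03), followed with Cdkn1a, Ccnd3, Mfng and Zim1 above.

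Of the 14 lower genes of largest fold, several serve neurons. Gria2, a subunit of AMPA receptors, was at 90.7 and 90.04 CPM against 8.30 and 14.4 (-2.99 ± 0.26, edgeR adjusted p = 0.0020). Cbln4, a synaptic organiser, was at 65.1 and 66.3 against 9.83 and 9.11 (-2.79 ± 0.11, edgeR adjusted p = 0.00075). Trnp1, a nuclear regulator of neural progenitors, was at 77.8 and 79.7 against 12.6 and 8.92 (-2.88 ± 0.18, edgeR adjusted p = 0.0012). In all of them the SMB56-shSufu libraries were far below the parent. The synaptic vesicle gene Synpr (-2.79), the histamine receptor Hrh3 (-2.57), Actl6b of the neuronal chromatin remodeller (-2.51), Disp3 (-2.49), Barhl2 and the pseudogene Cd63-ps (-2.38) were lower too. Lars2, the mitochondrial leucyl-tRNA synthetase, was at 259 and 245 against 34.0 and 33.7 (-2.90 ± 0.09, edgeR adjusted p = 0.0006), and it stands on the list of genes whose reads can come from ribosomal RNA.

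For others of the 14 lower genes, counts and FPKM were at odds. Snrpf, which encodes a core protein of spliceosomal snRNPs, was at 85.0 and 97.7 CPM against 1.22 and 1.34 (-6.15 ± 0.15, edgeR adjusted p = 0.0004), yet its FPKM were 148 and 147 against 150 and 129. Mapkapk5, a kinase below p38, was at 14.1 and 14.1 CPM against 1.80 and 1.93 (-2.91), with FPKM of 19.3 and 21.4 against 30.1 and 25.6. Thus both genes were far lower on counts and level or higher on FPKM. Pcp4, a calmodulin-binding protein of Purkinje cells, was lower on both, at 25.5 and 25.5 CPM against 0.92 and 0.85 and at 195 and 204 FPKM against 14.1 and 32.0.

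In GENCODE all 3 share exon bases with another gene: Snrpf with Ccdc38 on the opposite strand, and Mapkapk5 with Adam1a and Pcp4 with Igsf5 on the same strand. Reads in such exons can be left out or shared by a counter, and no source used here says how the authors counted them. Other named genes share exon bases with a gene and had like log2 folds on counts and FPKM. Examples are Ccnd2 (-1.48 and -1.49) and Gria2 (-2.99 and -2.79). Whether an overlap bears on the gap between the measures was not tested. Among all genes, 155 of the 9718 with FPKM in both lines differed more than 2-fold between the 2 measures. Of the 756 genes called at 2-fold or more, 50 did so, 14 had the opposite sign on FPKM, and 530 were at least 2-fold in the same direction on both.

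**Figure D4:**
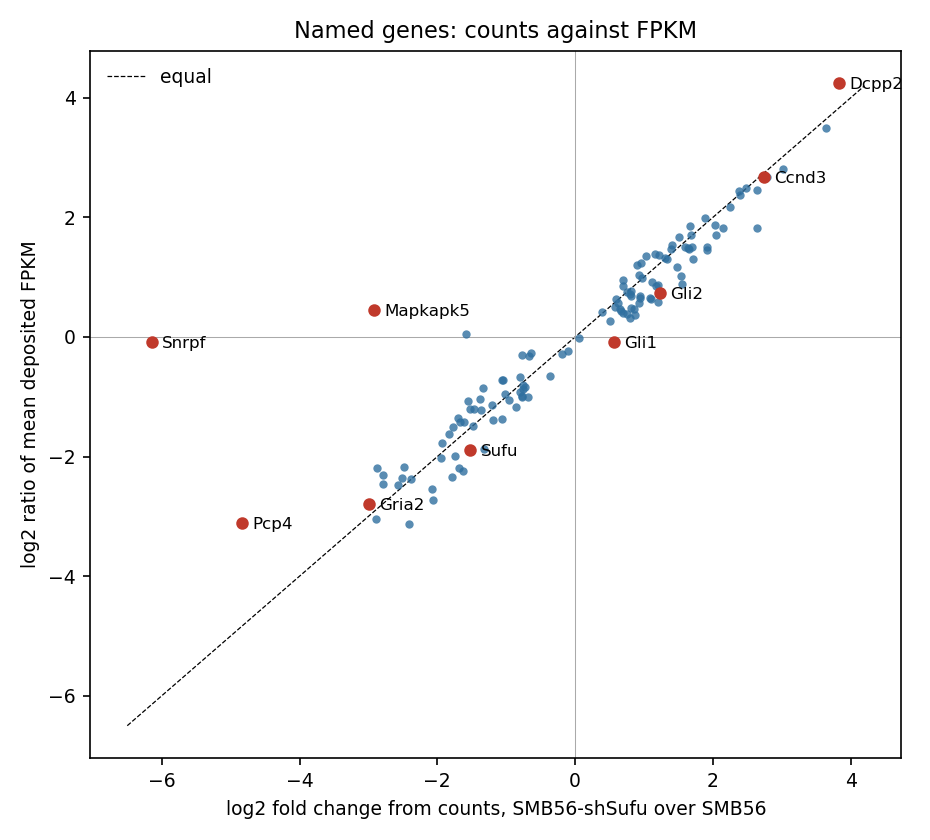
Log2 ratio of the mean deposited FPKM (vertical axis) against the log2 fold change from counts (horizontal axis), SMB56-shSufu over SMB56, for each named gene, with the dashed line where both are equal. Most genes lie near the line, Gli1 falls to -0.08 on FPKM, and Snrpf, Mapkapk5 and Pcp4 lie far above it.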

How the data were processed

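The authors deposited raw counts and FPKM per gene for 4 libraries in each table, per the file headers, and the tools listed in the submitters' processing notes are DESeq2 1.20.0, Cufflinks 2.2.1 and STAR 2.5.3a, with the build hg19 and no roles. The deposited counts and FPKM were joined on mouse Ensembl IDs, and 17 blank or date-like names were restored by ID. No coordinates were taken from the tables. The counts of the 2 SMB56 and 2 SMB56-shSufu DMSO libraries were fitted with edgeR 4.0.16 in R 4.3.3 (quasi-likelihood F test, TMM, filterByExpr, 1 coefficient per line, 2 residual degrees of freedom). No gene was lost to the filter. A call means an adjusted p (Benjamini-Hochberg, all 9719 genes) under 0.05. Deposited FPKM were tested with limma 3.58.1 on log2(FPKM + 1), a scale that understates changes of low genes. The GDC-0449 libraries were fitted apart, with their DMSO libraries, over 10008 genes. The test was checked on simulated counts with the same spread in both lines. The coefficients of variation here were 2.3% and 15.4%, so that check does not vouch for the calls on these libraries. Exon overlaps and gene types come from GENCODE M21, which held 9705 of the IDs.

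The genes named were 12 set hedgehog and lineage genes, the 14 higher and 14 lower called genes of largest fold with a mean of at least 5 CPM, no overlap of the lines and a proper gene name, and up to 4 called members of largest fold per list. Other list members are given as examples, and some genes the rule names are not reported here. Comparison, gene lists and rules were chosen with earlier results of these data known. Alternatives were other scalings and filters, DESeq2 1.42.0, limma voom, more libraries, thinned counts, a replicate block and leaving out each library.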

Additional observations from a re-analysis of the deposited data

How the results depend on the processing

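With 1 library left out, calls ranged from 1806 to 7465, higher calls from 831 to 3774 and lower calls from 975 to 3691; the lone library is then assumed to vary like the other line. Requiring a mean count of at least 500 left 271 genes at least 2-fold lower of 7344 tested. The other scalings, DESeq2 (3805 calls), voom (4353), all 8 libraries (4968), all 10 libraries (3996 of 7244 genes), thinned SMB56-shSufu counts (3899) and FPKM (3352) kept the total within 1.5 times of 3948. Of 1743 values of named genes under these settings, 1708 kept direction and call, 30 lost the call and 5 changed sign. On FPKM the sign changed for Gli1 (-0.10), Ccnd1 (-0.057), Mapkapk5 (0.43) and Ndufc1 (0.081), and under library size scaling for Ccnd1 (-0.041). With 1 library left out, Ccnd1 ranged from -0.206 (without SMB56-shSufu replicate 1, called lower) to 0.269 (without replicate 2, called higher). The cause of these changes was not tested. Replicate numbers did not pair the libraries (correlation of deviations 0.035), and the fit with the replicate block called 4395 genes, 2223 higher and 2172 lower. Added after seeing the data, the genes of either SMB56 table gave 4342 calls of 10675, and leaving out mitochondrially encoded genes 3919 of 9705.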

Other observations

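Genes of skeletal muscle are given as values with no test, since the list was put together after their values were seen. Of 52 muscle genes 29 had a row in the SMB56-shSufu table, 21 in an SMB56 table and 19 in both. The summed level of the 19 was 250 and 232 CPM in SMB56 and 662 and 607 in SMB56-shSufu. Myod1, the master factor of the muscle lineage, had 3739 and 2104 counts in SMB56-shSufu, and Myog, which acts after it, 898 and 610. Actc1, cardiac actin, had 1525 and 1377, and Tnnt1, a slow troponin, 1553 and 998. None of these 4 had a row for SMB56, so their level there was not analysed here. Myf5, Myf6, Des, Acta1, Ryr1 and Neb had no row for either line. Myh3, the embryonic myosin heavy chain, had 9 and 11 counts in SMB56 and 602 and 746 in SMB56-shSufu, and Sgca, alpha-sarcoglycan, 62 and 64 against 776 and 873. Other members showed no such difference: Tpm1 was at 67.2 and 62.6 CPM against 58.5 and 64.2, Myl4 at 3.97 and 2.91 against 3.67 and 2.82, Sgcb at 44.1 and 41.6 against 40.1 and 45.8, and Sgcd at 6.86 and 6.01 against 5.78 and 6.39. Ttn, titin, had 90 and 113 counts in SMB56 and Ckm, muscle creatine kinase, 2 and 1, and neither had a row for SMB56-shSufu.

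Genes outside the GDC-0449 table could be compared where the other SMB56 table held them. The lowest mean count of a gene in the GDC-0449 table was 79.5, so genes low in SMB56 are favoured among those outside it. Their folds and adjusted p therefore do not test a rise in SMB56-shSufu. In a fit of these with the rest, chosen after seeing the data, Spry4, a feedback inhibitor of receptor tyrosine kinases, was at 2.26 and 1.74 CPM in SMB56 and 22.2 and 45.3 in SMB56-shSufu (4.08 ± 0.44, edgeR adjusted p = 0.0028). Egr1, an early target of ERK, was higher (1.97 ± 0.28, edgeR adjusted p = 0.0054), and so was Fos (2.13 ± 0.37, edgeR adjusted p = 0.0086). Tgfbr3, a TGF-beta co-receptor, was higher (2.85 ± 0.19, edgeR adjusted p = 0.0012). The genes named here are examples picked among the higher ones, and lower ones are not shown. In all, that fit called 2211 genes higher and 2131 lower of 10675.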
